A study of Drosophila melanogaster with 4 samples.

Results

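Regions enriched for histone H3 dimethylated at lysine 9 (H3K9me2) on the euchromatic part of chromosome arm 3L were described in head nuclei of adult Drosophila melanogaster. A region belonged to it when its midpoint lay at or below position 22543557 of 3L in FlyBase Release 5, which is the arm length of 24543557 bp less the 2 Mb nearest the centromere, and when it was not classed as depleted. This gave 845 of 6264 enriched regions in replicate 1, 1558 of 10907 in replicate 2 and 1716 of 10762 in the authors' combined list. They made up 89.6%, 87.8% and 91.5% of the enriched regions on the whole of 3L.

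H3K9me2 is written by histone methyltransferases such as eggless, the fly SETDB1, and is bound by heterochromatin protein HP1a, which compacts chromatin and keeps transposons silent. Most of it lies in the repeat-rich chromatin around centromeres, and the gene-rich arms carry smaller islands of it. In flies such islands are known at transposon insertions and within stretches of inactive genes. Arm 3L runs from a telomere at position 1 to the centromere of chromosome 3.

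The series held a single experimental group. It comprised 2 ChIP libraries and 2 matched input libraries from mixed adults of the wild-type strain Oregon-R, and the antibody was H3K9me2-Ab2 (new lot). Flies were kept in population cages, and heads were separated from whole adults with sieves before chromatin was fixed with formaldehyde. Heads contain neurons, photoreceptors, glia, muscle and fat, so a weaker mark in every cell and a mark in fewer cells cannot be told apart. The labelled tissue could not be checked from lists of region positions. Nothing in the labels states whether each replicate used its own fly population. The spread between replicates may therefore be technical, and read depth is unknown.

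The deposited scores were taken to lie on a base-2 logarithmic scale, from the part of them that could be matched. Of the enriched regions of replicate 2, 1846 of 10907 differed from its most repeated score by the log2 of a ratio of whole numbers up to 50, within 1e-09. With a natural logarithm 0 did, and with log10 20 did. The corresponding counts with log2 were 845 of 6264 in replicate 1 and 1183 of 10762 in the combined list. A difference of 1 in score within a list is therefore a factor of 2 in the underlying ratio. What that ratio is set against is not stated. An offset may separate the lists, so a higher score in one list than in another is given as a value and not as stronger enrichment.

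The mark covered a minor share of euchromatic 3L as many short, separate regions. Replicate 1 covered 2.57 Mb, or 11.4% of the 22543557 bp, and replicate 2 covered 4.82 Mb, or 21.4%. The mean was 16.4% ± 7.04 (SD, n = 2), and the combined list covered 5.20 Mb, or 23.1%. The covered length in replicate 2 was 1.87 times that in replicate 1, and the number of regions 1.84 times. The density was 37.5 regions per Mb in replicate 1 and 69.1 in replicate 2. Typical sizes were alike, with medians of 2140 bp (replicate 1) and 2210.5 bp (replicate 2). The lists thus differed more in the number of regions than in the length of the typical one.

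The word euchromatic was checked against the covered share on either side of the limit. The last 500 kb inside it were covered over 4.06% in replicate 1 and 13.9% in replicate 2. The first 500 kb beyond it were covered over 20.5% and 28.6%, and the first 1 Mb beyond it over 50.3% and 48.5%. The final 1 Mb of the arm was covered over 87.6% and 73.6%. The steep rise in coverage thus lay outside the limit in both replicates. The last regions inside it were at 3L:22525150-22527083 in replicate 1, with a score of 1.06, and at 3L:22507641-22510317 in replicate 2, with a score of 0.83. The first ones outside it were at 3L:22661966-22663783 in replicate 1 (score 0.59) and at 3L:22555444-22557415 in replicate 2 (score 0.73).

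Coverage along the arm went up and down rather than rising steadily to the centromere. Among the 22 full megabases, the share ranged from 2.54% to 22.4% in replicate 1 and from 8.56% to 32.9% in replicate 2. The megabase from 20 to 21 Mb was the most covered in all 3 lists, at 22.4% (replicate 1), 32.9% (replicate 2) and 36.2% (combined list). It held 62 regions in replicate 1 and 86 in replicate 2, of which 11 and 17 were at least 5 kb long. The megabases from 8 to 9 Mb (16.4% and 31.2%), from 1 to 2 Mb (16.5% and 29.7%) and from 16 to 17 Mb (15.5% and 29.4%) held the ranks from 2 to 4 in each replicate.

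The megabase from 10 to 11 Mb was the least covered in all 3 lists, at 2.54% (replicate 1), 8.56% (replicate 2) and 9.09% (combined list). It held 11 regions in replicate 1, with lengths from 1395 to 5084 bp, and 40 in replicate 2, with lengths from 1328 to 5696 bp. The less covered of its neighbours had 3.41 times its share in replicate 1 and 2.26 times in replicate 2. The order of the megabases was much alike in the replicates, with Spearman's rho of 0.93 and Pearson's r of 0.93 over 22 megabases. These coefficients describe bins of the same pair of libraries and carry no test. Replicate 2 was above replicate 1 in 22 of 22 megabases, by a factor of 1.47 in the megabase from 20 to 21 Mb and up to 3.37 in that from 10 to 11 Mb.

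**Figure D1:**
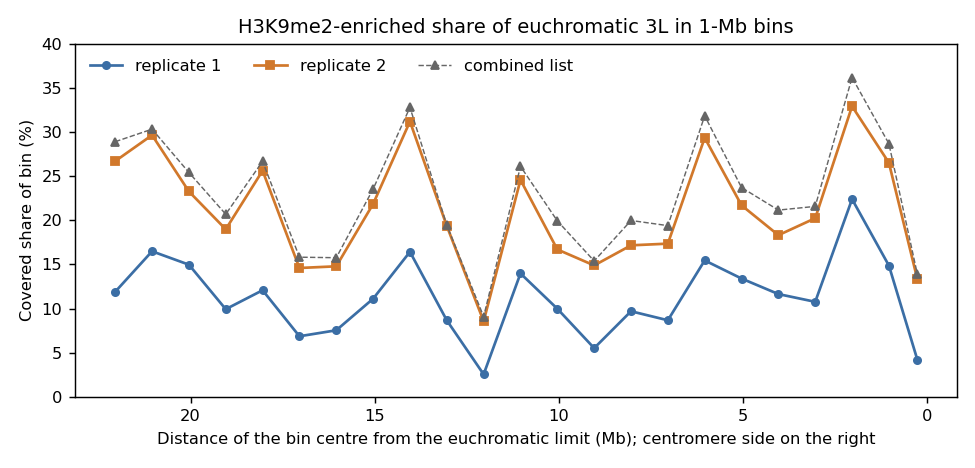
Covered share (%) of each 1-Mb bin of euchromatic 3L, plotted against the distance of the bin's centre from the euchromatic limit in Mb, with the centromere side on the right, for replicate 1 (circles), replicate 2 (squares) and the combined list (triangles). The lines rise and fall largely together, with replicate 2 above replicate 1 in each bin; the lowest full bin has 2.54% and 8.56%, and the last bin is shorter than 1 Mb.

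The last 2 Mb before the limit were covered a little more than the rest of the euchromatic part. The shares were 13.2% against 11.2% in replicate 1 and 23.9% against 21.1% in replicate 2, a mean difference of 2.36 percentage points ± 0.59 (SD, n = 2). The direction was the same in 2 of 2 replicates, and p was 0.5 in an exact two-sided permutation test that flips the sign of each replicate's difference. With n = 2 this test cannot give a smaller p. The mean ratio was 1.15 with this window and 0.986 with the last 1 Mb, where replicate 1 had 1.003 and replicate 2 had 0.968. With that window the replicates thus lay on either side of 1. At the telomere end, the first 100 kb were covered over 2.79% in replicate 1 and 6.32% in replicate 2. The first region listed in replicate 1 was at 3L:65448-68232, and replicate 2 listed 3L:53885-55263 ahead of its own region at 3L:65423-68767.

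At 100-kb resolution the mark was spread over most bins, at unequal shares. The median bin was covered over 9.04% in replicate 1 and 19.4% in replicate 2. Of 225 full bins, 31 held no enriched sequence in replicate 1 and 6 held none in replicate 2, and those 6 were empty in both. A share over 50% was reached by 2 bins in replicate 1 and 12 in replicate 2, with 1 bin in common. That bin, 3L:11900001-12000000, had 51.2% and 56.3%. The bin 3L:20400001-20500000 had 48.4% and 59.2%, and 3L:1200001-1300000 had 44.5% and 59.6%. The bins 3L:20600001-20700000, with 42.0% and 58.3%, and 3L:4200001-4300000, with 41.9% and 57.7%, completed the 5 highest by mean share.

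Neighbouring regions often stood close together. The median gap between neighbours was 8.87 kb in replicate 1 and 4.87 kb in replicate 2. When regions at most 5 kb apart were chained, 59.9% of the regions of replicate 1 and 73.6% of those of replicate 2 had at least 1 partner. The lists held 37.5 and 69.1 regions per Mb. No share expected at these densities was computed, so the values are not read as clustering. The longest such chain in replicate 1 spanned 66.9 kb at 3L:2040692-2107612, with 4 regions filling 88.0% of it. The chain with the most regions in replicate 1 held 10, at 3L:14936691-14975009. In replicate 2 the chain with the most regions held 16, at 3L:670996-748289, and the longest spanned 78.7 kb at 3L:7532686-7611403, with 14 regions filling 60.6% of it. The longest chains were thus at different places in the replicates, with long regions making up the one in replicate 1 and many shorter regions the one in replicate 2.

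Longer regions had higher scores. Regions under 2 kb made up 40.0% of the list in replicate 1 and 39.9% in replicate 2, with median scores of 0.62 and 0.53. Those of 2 to 5 kb had medians of 0.82 and 0.84, and those of 5 to 10 kb had 1.07 and 1.25. The 17 regions of at least 10 kb in replicate 1 and the 42 in replicate 2 had medians of 1.32 and 1.41. Spearman's rho between length and score was 0.82 over 845 regions in replicate 1 and 0.81 over 1558 in replicate 2. A region's length and score come from the same reads, so this is a description of the lists. The shortest listed region had 1301 bp in each replicate and 1001 bp in the combined list, which points to a fixed lower limit of length in each list.

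Broad and high-scoring regions were uncommon, as on the distal parts of the other large arms. Regions of at least 10 kb were 2.01% of the list in replicate 1, against 10.2% of all enriched regions, and 2.70% in replicate 2, against 5.4%. In the combined list they were 2.80% against 7.55%. Median scores were 0.75 in replicate 1 and 0.72 in replicate 2, and 0.51 in the combined list. A score above 2 was found in 6 regions of replicate 1 (0.71%, against 18.3% of all enriched regions) and in 10 of replicate 2 (0.642%, against 9.14%). The combined list had 9 such regions (0.524%, against 6.41%). On the distal parts of the other large arms, scores above 2 made up 0.594% to 1.88% of regions in replicate 1 and 0.627% to 1.25% in replicate 2. In the combined list they made up 0.871% to 1.24% there, so 3L had the lowest share in that list. The lists of all sequences also include the centromere-near and heterochromatin sequences.

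Regions present in both replicates were taken as the intersection of the lists, with gaps up to 1 kb joined. There were 703 shared regions with a total length of 2.50 Mb and a median length of 2205 bp, and 33 of them reached 10 kb. The longest was 3L:11938582-11983191, of 44.6 kb, more than the next by a factor of 2.14. In replicate 1 it consisted of 3 regions, of 8.41, 11.1 and 24.4 kb, with scores of 1.43, 1.32 and 1.38. In replicate 2 it consisted of 4, of 8.29, 11.4, 8.74 and 16.4 kb, with scores of 1.89, 1.63, 1.50 and 1.75. The first 2 breaks between regions fell at nearly the same places, since the second region began at 11947071 in replicate 1 and at 11947062 in replicate 2, and the third at 11958802 and 11958567. The combined list had 3 regions there, with the second starting at 11947012 and the third at 11958552. The rank depended on the joining of gaps. With gaps up to 5 kb joined, the stretch at this place had 47.9 kb. The stretch over 3L:2068983-2088008 and 3L:2091056-2107500 was then longer, at 48.1 kb.

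Of the 10 longest shared regions, 6 lay between positions 1227534 and 3366631. These bounds are the outer ends of the 6 regions themselves. The share of all 703 shared regions within them was not computed, so the count is not read as a trend along the arm. The first along the arm was 3L:1227534-1248386, of 20.9 kb, and the last was 3L:3346805-3366631, of 19.8 kb. Between these stood 3L:2068983-2088008, of 19.0 kb, and 3L:2091056-2107500, of 16.4 kb. They were followed by 3L:2124519-2142653, of 18.1 kb, and 3L:2238883-2252717, of 13.8 kb. These 4 stood within 184 kb, at 3L:2068983-2252717, where coverage was 44.4% in replicate 1 and 55.5% in replicate 2. The gaps between them, along the arm, were 3.05, 17.0 and 96.2 kb. With gaps up to 5 kb joined, the first 2 of them fell into a single stretch, so the count of 6 depended on the joining. Nearer the centromere were 3L:6194862-6212210, of 17.3 kb, 3L:17013369-17028607, of 15.2 kb, and 3L:18210752-18228800, of 18.0 kb. Together the 10 regions held 203 kb, which was 8.12% of the shared length.

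Scores of these 10 regions lay between 0.97 and 1.67 in replicate 1 and between 0.97 and 2.20 in replicate 2. Replicate 2 had the higher score in 10 of 10, and in 587 of all 703 shared regions; an offset between the lists was not tested. The highest was at 3L:2091056-2107500, a single region in each list, with 1.67 in replicate 1 and 2.20 in replicate 2. The lowest was at 3L:18210752-18228800, with 0.97 in both, split into 4 regions in replicate 1 and 5 in replicate 2. It was also the most fragmented of the 10. With the better-scoring 50% of each list, taken over all sequences, its longest shared stretch shrank to 5.53 kb.

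**Figure D2:**
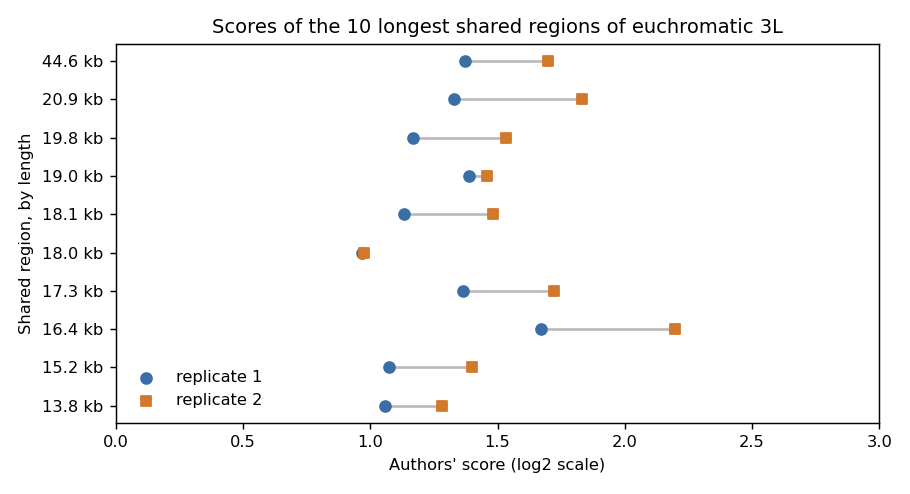
Authors' score (log2 scale) of the 10 longest shared regions of euchromatic 3L, ordered by length in kb, in replicate 1 (circles) and replicate 2 (squares), with a grey line joining the replicates. Scores lie between 0.97 and 2.20, with replicate 2 to the right in 10 of 10 regions and the smallest difference at the 18.0-kb region.

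Of the 5 highest-scoring shared regions, 0 were among the 10 longest. The first was 3L:5112510-5114379, of 1.87 kb, which scored 2.28 in replicate 1 and 3.32 in replicate 2. It was the end of a tight group. Replicate 1 listed 4 regions there, from 3L:5103923-5105956 with a score of 1.15, through 3L:5106432-5108450 with 2.46 and 3L:5108612-5110603 with 2.08, to the named one. Replicate 2 listed 2, 3L:5103806-5111210 with 1.89 and 3L:5111604-5115217 with 3.32. The combined list held the whole group as 1 region of 11485 bp, 3L:5103792-5115276, with a score of 1.89. The group was therefore enriched in each list, but its subdivision and its highest point differed between them.

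The second was 3L:5452268-5459954, of 7.69 kb, with scores of 2.40 and 3.03, and it lay 0.338 Mb from the first. The third was 3L:22092722-22096644, of 3.92 kb, which lay 0.449 Mb from the euchromatic limit. It scored 2.38 in replicate 1 and 2.48 in replicate 2, and the combined list gave 2.41, so the 3 values were close to each other. Next came 3L:16892176-16900805, of 8.63 kb, with 1.72 and 2.32, and then 3L:20408504-20417676, of 9.17 kb, with 1.79 and 2.15. The mean scores of the 5 ranged from 1.97 ± 0.26 to 2.80 ± 0.74 (SD, n = 2), against list medians of 0.75 and 0.72. They were ranked by score, so this height follows from the choice.

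Several of the highest scores in a list rested on 1 library. The highest score of replicate 2, 3.53, was at 3L:8228623-8230164, and its neighbour 3L:8230494-8231895 had 2.85. Replicate 1 listed no region over either, and the combined list gave scores of 3.96 and 1.94 there. The second highest score of replicate 1, 2.42, was at 3L:21369422-21371625, which replicate 2 did not list. In the combined list 53.2% of its length was enriched, with a score of 1.26. These regions were short, with 1542, 1402 and 2204 bp.

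Long stretches without any listed region were also mapped. The longest stretch free of enriched regions in both replicates was 3L:10461281-10680115, of 219 kb. It was followed in length by 3L:13568957-13741608 (173 kb) and 3L:17056291-17226052 (170 kb). The next were 3L:10290512-10439764, of 149 kb, and 3L:22123835-22267237, of 143 kb. The stretches of 219 and 149 kb were neighbours within the least covered part of the arm. Only 21.5 kb separated them, where replicate 2 listed 3L:10439765-10441175 and 3L:10459146-10461280 with scores of 0.63 and 0.73, and replicate 1 listed none. From 10290512 to 10680115, a span of 390 kb, replicate 1 had no region at all. The stretch of 143 kb began 27.2 kb after the end of the high-scoring region at 22092722. Stretches over 50 kb numbered 68 and took up 24.0% of euchromatic 3L. The combined list held no region in 3 of the 5 and reached into the other 2 over 0.235% and 0.0449% of their length.

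The replicate lists were then compared region by region. As deposited, the longer list of replicate 2 held nearly all of what replicate 1 listed. Of its 845 regions, 822 (97.3%) were touched by replicate 2, against 93.6% over all 13 sequences, and 590 lay wholly inside regions of replicate 2. In the other direction 748 of 1558 regions (48.0%) were touched, against 60.9% over all sequences, and 31 lay wholly inside. In base pairs the overlap was 2.44 Mb, equal to 94.8% of what replicate 1 covered, 50.6% of what replicate 2 covered and 49.2% of the union. Replicate 1 alone held 0.134 Mb, and replicate 2 alone held 2.38 Mb. This order turned when replicate 2 was reduced to the covered length of replicate 1 over all 13 sequences, lowest scores first. With that cut, 73.1% of replicate 1 regions and 83.0% of replicate 2 regions were touched. The lists stayed unequal on the euchromatic part, at 11.4% (845 regions) in replicate 1 and 13.2% (635 regions) in replicate 2. The cut removes low-scoring regions of replicate 2 by construction. How much of the turn goes with this removal was not tested.

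Whether a region of replicate 2 was touched went with its length and score. Of its regions under 2 kb, 15.0% were touched by replicate 1, and of those of 2 to 5 kb, 61.5%. Of the 167 regions of 5 to 10 kb 99.4% were touched, and of the 42 of at least 10 kb 100%. By score, 67 of 390 regions in the lowest quartile of the list were touched (17.2%) and 361 of 390 in the highest (92.6%). The median score was 0.96 for the 748 touched regions and 0.60 for the 810 others, and the median lengths were 3295 and 1801.5 bp. In replicate 1, by contrast, 94.1% of the regions under 2 kb were already touched. A longer region has more positions at which 1 bp can overlap, so some rise with length is built into this measure. Scores rose with length, so this applies to the trend with score too.

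**Figure D3:**
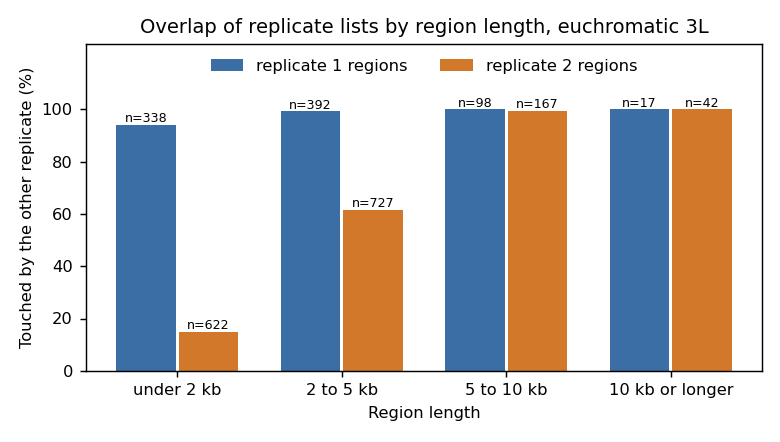
Share (%) of the regions of each replicate on euchromatic 3L that were touched by at least 1 bp of the other replicate's regions, by region length, with the number of regions above each bar. Bars of replicate 1 stand at 94.1% or more in every class, and those of replicate 2 rise from 15.0% under 2 kb to 100% at 10 kb or longer.

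Regions listed in 1 replicate alone were short. The longest of replicate 2 that replicate 1 did not touch were 3L:286676-291932 (5257 bp, score 0.74), 3L:21101361-21106355 (4995 bp, 0.60) and 3L:16710776-16715470 (4695 bp, 0.95). The combined list covered 87.3%, 70.3% and 98.7% of them. The longest of replicate 1 that replicate 2 did not touch were 3L:21369422-21371625, described above, 3L:21763999-21766114 (2116 bp, score 0.63) and 3L:20527476-20529565 (2090 bp, 0.73). The combined list had no region over the second of these and covered 98.7% of the third. The 23 untouched regions of replicate 1 lay a median of 2.41 kb from the nearest region of replicate 2 and at most 19.5 kb. The 810 of replicate 2 lay a median of 7.70 kb from the nearest region of replicate 1 and up to 221 kb, and 54 were over 50 kb away.

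Where a region of 1 list matched exactly 1 region of the other, the version in replicate 2 was usually longer, and its listed score was usually higher. There were 598 such pairs. The region of replicate 2 was longer in 535 of them (89.5%), with median lengths of 2112.5 bp (replicate 1) and 3111.5 bp (replicate 2). In 426 pairs it reached past both ends of its partner, and the reverse held in 17. Starts differed by a median of 321 bp and ends by 305 bp. The score was higher in replicate 2 in 491 pairs (82.1%), with medians of 0.74 and 0.93 and a median difference of 0.21. An offset between the scores of the lists was not tested and cannot be told apart from this difference. Spearman's rho of the paired scores was 0.73 and Pearson's r 0.83, which describe regions of a single pair of libraries.

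**Figure D4:**
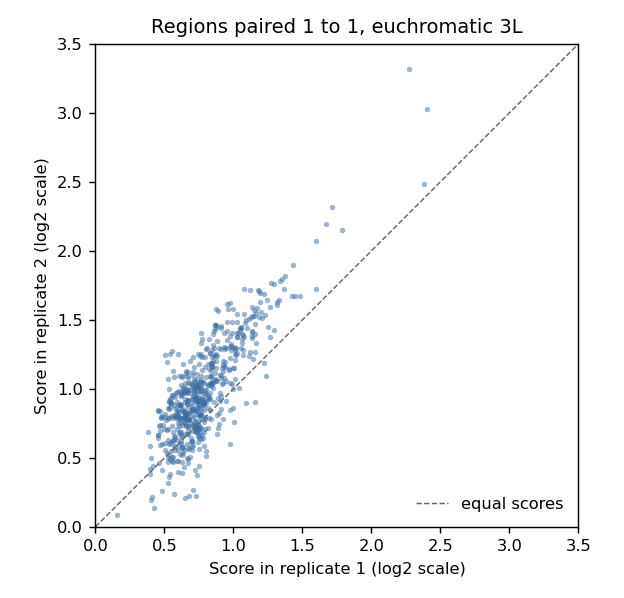
Score in replicate 1 (x axis) against score in replicate 2 (y axis), both on a log2 scale, for the 598 pairs of regions that matched 1 to 1 on euchromatic 3L, with a dashed line at equal scores. Most points, 491 of 598, lie above the line, and 3 pairs have scores above 2 in both replicates and stand apart at the upper right together with a few others.

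Score differences between the partners ran from -0.51 to 1.04. The largest was at the top-scoring region, 3L:5112510-5114379, and the next, 0.74, at 3L:4871642-4873431 with 0.51 in replicate 1 and 1.25 in replicate 2. The largest in the other direction was at 3L:17752971-17755566, with 0.73 in replicate 1 and 0.22 in replicate 2. Splitting was also seen. Replicate 2 had 89 regions that touched several regions of replicate 1, with up to 5 in one, and replicate 1 had 36 that touched several of replicate 2, with up to 4.

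The authors' combined list kept nearly everything the replicates shared and added regions that neither had listed. It held 99.99% of the shared length. Of sequence covered in only 1 replicate, it held 78.9% for replicate 1 and 91.8% for replicate 2. Of its 1716 regions, 705 touched both replicates, 770 touched replicate 2 only and 21 touched replicate 1 only. The median scores of these were 0.79, 0.41 and 0.36. A further 220 (12.8%, against 11.5% over all sequences) touched neither, and their medians were 1209 bp in length and 0.42 in score. No replicate list held a region as short as this median length, since the shortest had 1301 bp in each. How much of the absence goes with these unlike limits of length was not tested. The 220 regions included 5 of the 9 regions of this list with a score above 2. The longest of them were 3L:12092394-12095722 (3329 bp, score 0.42), 3L:5609502-5612594 (3093 bp, 0.39) and 3L:4297454-4300030 (2577 bp, 0.43). Since the combined list rests on these libraries, its overlap with them is a description.

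Euchromatic 3L was finally set beside the distal parts of the other large arms, each without its 2 Mb next to the centromere. It ranked in the middle. In replicate 1 its 11.4% stood below X (14.1%) and 2R (13.4%) and above 2L (10.2%) and 3R (9.32%). In replicate 2 its 21.4% stood below X (27.1%) and 2R (24.5%) and above 2L (19.6%) and 3R (18.9%). The combined list gave this order too. Against the other 4 arms together, which had 11.5% and 22.2%, 3L was lower by 0.135 percentage points in replicate 1 and 0.871 in replicate 2. The mean difference was -0.503 points ± 0.520 (SD, n = 2), no larger than the spread between replicates (p = 0.5 by the exact sign-flip test, its smallest value). With the limit at 1 Mb from the end of the arms, the mean ratio of 0.975 turned to 1.04, with 1.08 in replicate 1 and 0.9998 in replicate 2.

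**Figure D5:**
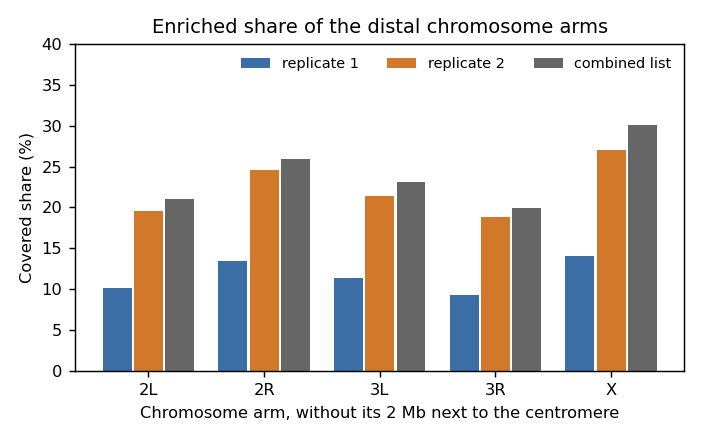
Covered share (%) of the distal part of each large chromosome arm, without the 2 Mb next to the centromere, in replicate 1, replicate 2 and the combined list. Arm 3L, with 11.4%, 21.4% and 23.1%, is below X and 2R and above 2L and 3R in each list.

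Lengths and overlap of the regions on 3L lay within the range of the other arms, and scores lay at its lower end. Their median score was 0.75 in replicate 1, where the other arms ranged from 0.73 on 3R to 0.91 on X. In replicate 2 the median of 0.72 was the lowest of the 5 arms, next to 0.73 on 2L, and in the combined list 3L and 2L both had 0.51, the lowest to 2 decimals. Regions of at least 10 kb were 2.01% in replicate 1, where the other arms ranged from 1.19% on 3R to 3.47% on 2R. Replicate 2 touched 97.3% of the regions of replicate 1 on 3L, and between 95.4% (X) and 98.2% (3R) on the other arms. The last 2 Mb of 3L were unlike it, with median lengths of 6587.5 and 3628 bp, median scores of 1.40 and 1.28, and 41.8% and 14.7% of regions reaching 10 kb.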

How the data were processed

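ChIP and input libraries were sequenced from head nuclei. The submitters' processing notes name Bowtie 0.12.7, a short-read aligner. How regions were called, at which threshold, and how the replicates were merged is not given in the sources used here. Coordinates are FlyBase Release 5, per the file headers, and are printed 1-based. Each region carries a score by the authors, whose unit is not stated. Scores were used within a list, set side by side for shared and paired regions, and averaged over the replicates to rank shared regions, although an offset may separate the lists. The lists hold no counts, so depth and counting error are unknown. The input libraries' own reads were not used here. The gene table at hand is on Release 6, so no gene was assigned to a region.

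Overlaps, covered shares (enriched length over sequence length) and summaries were computed in Python 3.11.15 with numpy 2.4.6, pandas 2.3.3 and scipy 1.17.1. An overlap counted from 1 bp. Interval functions were tested on simulated lists. Sequences were the 5 large arms, chromosome 4, the Het scaffolds and U, 13 in all. Named were the 10 longest shared regions and the 5 shared regions of at least 1 kb with the highest mean score (score weighted by overlapping length). Also named were the 3 longest regions of each replicate not touched by the other, and the 3 longest of the combined list touched by neither replicate. The 5 longest stretches without regions in both replicates, the 5 most covered 100-kb bins and the regions beside the limit were named too. Other regions, such as the highest-scoring ones of a single list and the ends of chains, were chosen after their values were seen. The members and these rules were chosen with earlier results of these data known.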

Additional observations from a re-analysis of the deposited data

How the results depend on the processing

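The alternatives were applied to the lists before each value was recomputed. The better-scoring 50% of regions of each list were taken over all 13 sequences. On euchromatic 3L this left 220 of 845 regions in replicate 1 and 480 of 1558 in replicate 2. The mean covered share fell from 16.4% to 8.28% and the mean number of regions from 1201.5 to 350. The Jaccard index (shared length over the union) went from 49.2% to 41.9%, the share of replicate 1 regions touched from 97.3% to 95.0%, that of replicate 2 from 48.0% to 41.7%, and the total of the 10 longest shared regions from 203 to 191 kb. Joining gaps up to 5 kb gave 642 regions, a Jaccard index of 48.1% and 372 kb. Replicate 2 was also reduced to the covered length of replicate 1 over all 13 sequences, which left it at 13.2% of euchromatic 3L. This gave a mean of 740 regions, a Jaccard index of 58.9% and touched shares of 73.1% and 83.0%. The score difference between touched and other regions of replicate 2 was 0.21 in place of 0.36. Asking for an overlap of 50% gave 95.9%, 42.2% and a score difference of 0.36. These settings remove or join regions by construction. The ratio of 3L to the other arms turned from 0.975 to 1.04 with the limit 1 Mb from the arm's end, and that of the last 2 Mb to the rest from 1.15 to 0.986 with a 1-Mb window, each in 1 of 2 replicates; the cause was not tested. Both ratios kept their direction under the other alternatives. Leaving out each replicate in turn gave covered shares of 11.4% to 21.4%, 845 to 1558 regions, and ratios of 0.961 to 0.988 and 1.13 to 1.17. No paired analysis was possible because the inputs have no list of their own, which leaves a single group of samples; the sign-flip tests set parts of the genome side by side within each replicate. With 2 replicates no test could pass a threshold of 0.05.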

Other observations

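Several of the highest scores of the combined list on euchromatic 3L were at short regions that neither replicate listed. Of its 9 regions with a score above 2, 5 touched neither replicate. They were 3L:21367072-21368174 with 4.11, 3L:14719974-14721642 with 3.11, 3L:18827008-18828028 with 2.38, 3L:27278-28278 with 2.28 and 3L:12916292-12917878 with 2.11, and were between 1001 and 1669 bp long. The first, second and last of these scores differ by whole units. The first lay 1.25 kb before the region of replicate 1 at 3L:21369422-21371625, which replicate 2 did not list. The fourth was the region nearest the telomere in any list.

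Many regions had a score identical to that of another region of the same list. On euchromatic 3L this applied to 314 of 845 regions in replicate 1 (37.2%), 578 of 1558 in replicate 2 (37.1%) and 446 of 1716 in the combined list (26.0%), compared at 9 decimals. The score 0.53 alone occurred 94 times among the 10907 enriched regions of replicate 2.

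The combined list also classed 2 regions of euchromatic 3L as depleted, which the rule left out. They were 3L:9891076-9892910 with a score of -0.075 and 3L:14046382-14048018 with -0.020. Enriched regions of replicate 2 covered 100% and 97.7% of them, and those of replicate 1 covered 0%. Within the replicate lists no region of 3L was classed as depleted.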
